A study of Mus musculus with 9 samples.

Results

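The 10 circadian clock genes Per1, Per2, Per3, Cry1, Cry2, Clock, Nr1d1, Nr1d2, Dbp and Tef were followed in the ventral hippocampus of 9 mice. They were listed by gene symbol and read from all 9 count tables, and they are 10 of the 40213 genes in the count tables and 10 of the 16106 genes with enough counts to be tested. All mice were wild-type C57BL/6J males, 8 weeks old when they were housed, on a cycle of 12 h light and 12 h dark. The 3 SED mice are labelled as untreated sedentary controls. The 3 SUS mice are labelled stress-susceptible, after restraint in a tube for 2 h a day between 10 and 12 o'clock of the light phase on 14 days, and stayed sedentary afterwards. The 3 SUS_LE mice (SUS+LE in the design text) had the same label and restraint and then ran on a treadmill at low intensity for 2 weeks. The labels state neither how susceptibility was scored, nor the time of day at which tissue was taken, nor the interval after the last session, so a difference in level and a difference in clock phase cannot be told apart. Each library is labelled as a separate mouse, so the p-values below refer to the spread between animals.

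In the mammalian clock, the proteins CLOCK and BMAL1 (or NPAS2 in place of CLOCK) bind E-box sequences and switch on the Per and Cry genes, the Nr1d1 and Nr1d2 genes and the Dbp and Tef genes. PER and CRY proteins then repress CLOCK and BMAL1, and REV-ERB alpha and beta, the products of Nr1d1 and Nr1d2, repress Bmal1 and other genes that carry REV-ERB and ROR elements. In rodent tissues the mRNAs of the Per, Nr1d and Dbp genes and that of Bmal1 peak at opposite parts of the day, with the Clock mRNA cycling weakly or near the phase of Bmal1. Per1 is also known to respond within hours to neuronal activity and to glucocorticoids, outside its daily rhythm.

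All 10 genes were well covered. Cry1 was the lowest, with 112 to 177 counts per library, and Tef the highest, with 2582 to 3112. Counts were expressed as CPM, the counts scaled to the library total, and between genes as CPM per kilobase of the longest annotated transcript. On that scale Tef, a transcription factor of the PAR bZIP family, stood highest at 44.1 ± 2.19 (SD, n = 9), followed by Nr1d1 at 41.0 ± 2.34. Cry2 reached 25.0 ± 1.72, Nr1d2 18.8 ± 1.01, Dbp 18.8 ± 2.75, Per1 13.3 ± 1.61 and Clock 12.6 ± 1.05. Per3 at 5.94 ± 0.550, Per2 at 4.56 ± 0.205 and Cry1 at 3.40 ± 0.437 were the lowest. Over the 9 libraries the ranges of 3 neighbouring pairs in that order overlapped, Tef with Nr1d1, Nr1d2 with Dbp, and Per1 with Clock, and the remaining neighbours did not overlap. The spread over all libraries was smallest for Per2, with a coefficient of variation of 4.49%, and largest for Dbp, with 14.6%.

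Library totals ran from 14172344 to 15582304 counts. The 8 markers of hippocampal neurons were all tested, and their summed level was 735 to 841 CPM in every library, although single markers differed in direction between groups (Prox1 and Wfs1, given with Clock). The sum of 6 markers of the suprachiasmatic nucleus and hypothalamus was 46.2 to 54.4 CPM. Most of it was Rorb at 23.7 to 29.4 CPM, Vip (vasoactive intestinal peptide) at 12.6 to 19.4 and Prokr2 at 4.66 to 7.50, while Six3 was at 0 to 3.29, Avp (vasopressin) at 0 to 0.492 and Nms (neuromedin S) at 0 to 0.0701 CPM. The 12 markers of choroid plexus epithelium, a tissue within the ventricle beside the hippocampus, differed widely between libraries. Their sum was 3311 to 4855 CPM in SED, 58.1 to 6742 in SUS and 96.4 to 1681 in SUS_LE, where every library lay below the SED libraries. Their leading gene Ttr, transthyretin, was at 27.4 CPM in SUS 1, 83.2 in SUS_LE 1 and 59.6 in SUS_LE 3, and between 1509 and 6085 CPM in the other 6 libraries. The values of Per1, Clock and Dbp are given with and without these 3 libraries. In bulk tissue, fewer cells of a type and less RNA per cell cannot be told apart.

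The promoter sequences are shown first for the genes on which the results turn (Per1, Clock and Dbp) and for Nr1d1 and Per3 as further members of the same loop. The 250 bases before a transcription start were taken from RefSeq annotation on GRCm38.p6. Per1 has 2 annotated starts with a window and Clock 3, and the first of each is shown. They lie at chr11:69098699-69098948, plus strand, for Per1, at chr5:76304793-76305042, minus strand, for Clock, at chr7:45704997-45705246, plus strand, for Dbp, at chr11:98775378-98775627, minus strand, for Nr1d1, and at chr4:151044666-151044915, minus strand, for Per3. Each is read 5′ to 3′ along its gene, with matches to any of the motifs below in capitals.
Per1: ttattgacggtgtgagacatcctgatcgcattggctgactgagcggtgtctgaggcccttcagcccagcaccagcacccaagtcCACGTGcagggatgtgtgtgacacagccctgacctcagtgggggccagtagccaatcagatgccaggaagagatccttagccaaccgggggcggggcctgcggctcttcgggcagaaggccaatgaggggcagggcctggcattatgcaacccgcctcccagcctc
Clock: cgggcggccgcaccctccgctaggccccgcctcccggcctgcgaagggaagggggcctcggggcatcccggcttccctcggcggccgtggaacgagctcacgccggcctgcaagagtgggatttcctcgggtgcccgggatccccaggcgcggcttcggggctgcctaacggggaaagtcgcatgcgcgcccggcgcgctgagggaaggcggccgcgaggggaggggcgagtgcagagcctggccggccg
Dbp: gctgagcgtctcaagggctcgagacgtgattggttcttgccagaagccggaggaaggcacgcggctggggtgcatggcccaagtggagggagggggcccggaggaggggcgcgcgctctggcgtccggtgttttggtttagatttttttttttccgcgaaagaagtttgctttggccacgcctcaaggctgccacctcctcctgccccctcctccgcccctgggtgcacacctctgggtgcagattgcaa
Nr1d1: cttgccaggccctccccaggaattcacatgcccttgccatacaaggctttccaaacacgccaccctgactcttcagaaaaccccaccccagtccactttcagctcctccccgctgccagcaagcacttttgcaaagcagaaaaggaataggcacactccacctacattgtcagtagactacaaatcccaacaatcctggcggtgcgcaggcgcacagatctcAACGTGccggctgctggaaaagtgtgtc
Per3: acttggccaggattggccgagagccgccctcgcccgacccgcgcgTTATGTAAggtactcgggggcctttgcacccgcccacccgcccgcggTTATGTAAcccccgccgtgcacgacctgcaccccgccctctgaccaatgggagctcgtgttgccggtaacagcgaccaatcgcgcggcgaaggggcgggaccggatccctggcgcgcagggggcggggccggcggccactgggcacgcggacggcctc

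Promoter windows of 250 bases before to 50 after a start were found for 9 of the 10 genes, and both strands were searched. The E-box CACGTG, the site of CLOCK and BMAL1, was present in a window of 3 of these genes, Per1 (first base at -166 in the window shown, with no motif in the other), Cry1 (-60) and Tef (-127 in one window and -138 in the other). Over all genes, 7.15% of 32851 windows held it, and 8.09% of 27025 genes held it in any window. The variant E-box CACGTT was present in Cry1, Cry2 and Nr1d1, read there as AACGTG on the gene's strand, against 4.68% of all windows and 5.44% of genes. The D-box, searched as TTATGTAA and TTACGTAA, which DBP and TEF bind, occurred in Per3 alone among these genes, at -205 and -158, against 1.06% of all windows and 1.23% of genes. Neither the REV-ERB and ROR element, searched as TAGGTCA and TGGGTCA (6.45% of windows), nor the cyclic AMP element TGACGTCA (1.79%) occurred in a window of the 9 genes, and no motif occurred in the windows of Clock, Nr1d2 or Dbp. None of these motifs contains another, and a match describes the letters of a window and not a bound site.

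**Figure D1:**
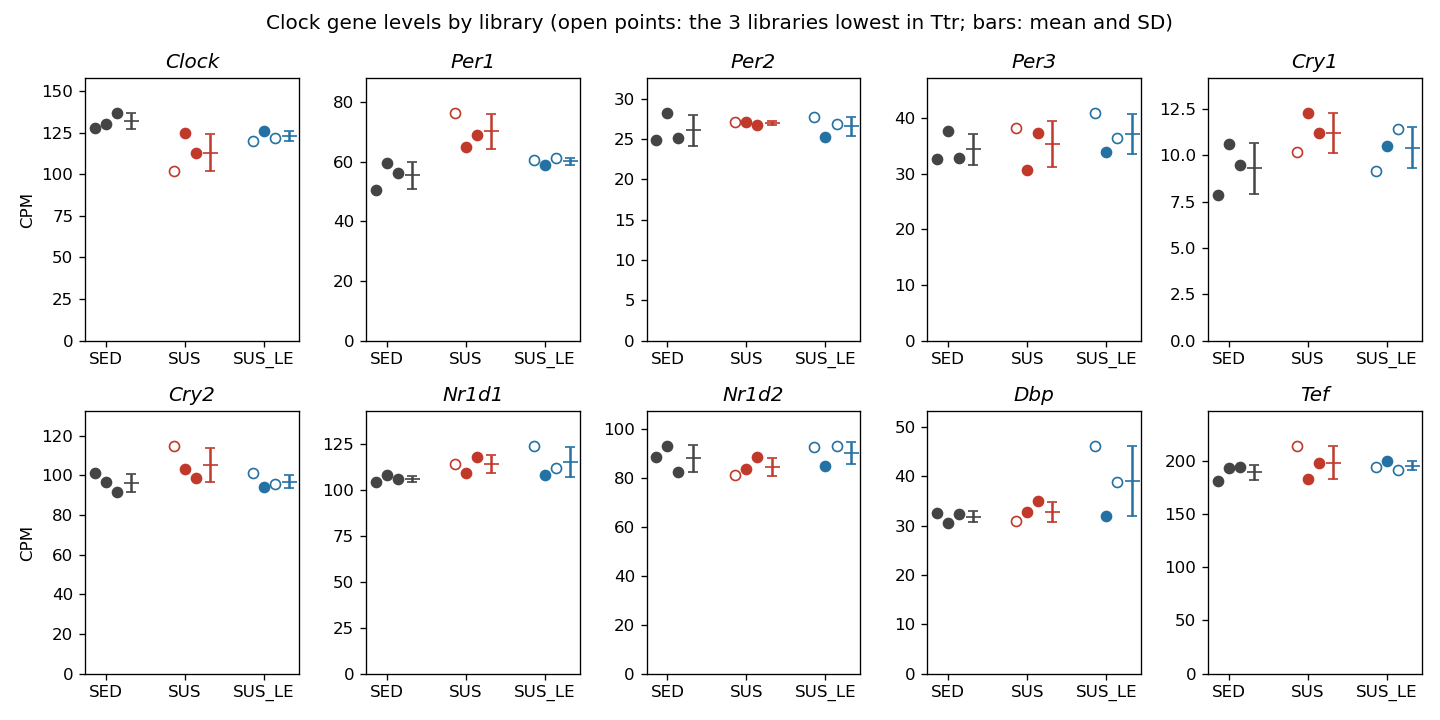
Level of each clock gene in CPM (vertical axis, from 0) in the 3 libraries of each group, with the group mean and SD beside them and open points for the 3 libraries lowest in Ttr. Per1 is above all SED libraries in every SUS library (64.9 to 76.5 against 50.5 to 59.6 CPM), Clock is below all of them, and Dbp is highest in SUS_LE 1 and SUS_LE 3 (46.2 and 38.8 CPM).

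The comparison of SUS with SED asks what restrained, susceptible mice and untreated mice differ in. Per1, the most stimulus-responsive of the Per genes, stood higher in SUS, and Clock, which encodes a partner of BMAL1 in the positive limb, stood lower. The other 8 genes differed by 0.27 or less on the log2 scale. No gene of the 10 passed the edgeR quasi-likelihood test at an adjusted p of 0.05, and neither did any other gene (0.00% of 16106 genes).

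Per1 measured 50.5, 59.6 and 56.2 CPM in SED 1 to 3 and 76.5, 64.9 and 69.1 CPM in SUS 1 to 3. Every SUS library lay above every SED library. The log2 fold change was 0.34 (SE 0.07, 95% interval 0.19 to 0.49, a fold of 1.27), with an adjusted p of 0.0929 by edgeR, rank 23 among all tested genes. With DESeq2 the adjusted p was 0.00989. Of the 9 DESeq2 runs that each left out 1 library, 5 kept Per1 under 0.05, the run without SED 1 gave 0.210, and the runs without SED 3, SUS 1 or SUS_LE 2 gave it no adjusted p. By edgeR, leaving out SUS 2 brought the adjusted p to 0.0493 and leaving out SED 3 to 0.477, with log2 fold changes of 0.39 and 0.35. Leaving out the 3 low-Ttr libraries gave 0.271.

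Clock measured 128, 130 and 137 CPM in SED 1 to 3 and 102, 125 and 113 CPM in SUS 1 to 3. The groups did not overlap, and SUS 1, one of the 3 libraries lowest in Ttr, was the lowest of all. The log2 fold change was -0.22 (SE 0.06, 95% interval -0.35 to -0.09), with an adjusted p of 0.169 by edgeR. DESeq2 gave an adjusted p of 0.0488. That call was lost when any single library other than SUS 2 was left out, except that the run without SED 3 gave no adjusted p, and it was lost without DESeq2's independent filtering (0.156). Without SUS 1 the edgeR log2 fold change was -0.148, with a DESeq2 adjusted p of 0.297, and without all 3 low-Ttr libraries it was -0.151.

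Markers of glia also differed between these groups. The summed level of 6 astrocyte markers was 4853 to 5146 CPM in SED, 4460 to 4620 in SUS and 4896 to 5127 in SUS_LE, and that of 7 oligodendrocyte markers was 2953 to 3159, 2491 to 2848 and 2549 to 3161 CPM. In SUS against SED all 7 oligodendrocyte markers had a negative value, 5 of them with an unadjusted edgeR p under 0.05, as had 4 of the 6 astrocyte markers, 3 of them under 0.05, beside 13.1% of all tested genes (6.26% lower). No marker passed the adjusted threshold by edgeR, and DESeq2 called 1 of the 7 and 2 of the 6. No marker of either list was at 0 in a library. Of the 8 neuronal markers, Prox1, which marks granule cells of the dentate gyrus, measured 108, 88.9 and 118 CPM in SED, 87.9, 75.5 and 74.3 in SUS and 107, 99.9 and 92.9 in SUS_LE. Its log2 fold change was -0.41 in SUS against SED (edgeR adjusted p = 0.178, DESeq2 adjusted p = 0.00479) and 0.34 in SUS_LE against SUS (edgeR adjusted p = 0.211, DESeq2 adjusted p = 0.0281), without overlap in either. Wfs1, a marker of CA1 pyramidal neurons, measured 82.8, 103 and 71.3 CPM in SED and 139, 147 and 109 in SUS, also without overlap, at 0.62 (edgeR adjusted p = 0.348, DESeq2 adjusted p = 0.0988). Prox1 and Wfs1 were picked out after their values were seen. The remaining neuronal markers overlapped between SED and SUS. Their log2 fold changes were 0.05 for Fibcd1, 0.17 for Spink8, 0.12 for Grik4, 0.07 for Neurod6, -0.08 for Neurod2 and -0.03 for Calb1. The part of any of these cells in the Clock and Per1 values was not tested.

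Per2 and Per3, which encode the other PER repressors, overlapped between the groups. Per2 measured 24.9, 28.3 and 25.2 CPM in SED, 27.1, 27.1 and 26.7 in SUS and 27.7, 25.3 and 26.9 in SUS_LE. The groups overlapped, and the log2 fold change of SUS against SED was 0.05 (95% interval -0.12 to 0.21). Per3 measured 32.6, 37.6 and 32.9 CPM in SED, 38.2, 30.7 and 37.4 in SUS and 41.0, 33.9 and 36.4 in SUS_LE, with a log2 fold change of 0.04 (95% interval -0.15 to 0.24) and overlapping groups. The interval of neither gene reached the 0.34 of Per1, but the difference between the genes was not tested. The annotated Camta1 gene, a transcription factor gene on the same strand, spans 41014 bases of Per3 on GRCm38, and Camta1 itself stood at a log2 fold change of 0.01.

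The cryptochrome genes, whose proteins repress CLOCK and BMAL1, were both slightly higher in SUS. Cry1 measured 7.86, 10.6 and 9.46 CPM in SED, 10.2, 12.3 and 11.2 in SUS and 9.17, 10.5 and 11.4 in SUS_LE. Cry2 measured 101, 96.4 and 91.4 CPM in SED, 115, 103 and 98.5 in SUS and 101, 94.1 and 95.6 in SUS_LE. SUS 1 was the highest library for Cry2, and the groups overlapped for both genes. By edgeR the log2 fold changes were 0.27 (SE 0.14, adjusted p = 0.410) for Cry1 and 0.13 (SE 0.06, adjusted p = 0.368) for Cry2.

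Nr1d1 and Nr1d2 encode REV-ERB alpha and beta. Nr1d1 measured 104, 108 and 106 CPM in SED, 114, 109 and 118 in SUS and 124, 108 and 112 in SUS_LE. All 3 SUS libraries lay above the SED libraries, by little for SUS 2, with a log2 fold change of 0.10 (SE 0.06, edgeR adjusted p = 0.465). Thra, a thyroid hormone receptor gene that overlaps the end of Nr1d1 by 1075 bases on the other strand, measured 0.12 with overlapping groups, and since the strand setting of the counts is not stated, reads in the shared bases cannot be told apart. Nr1d2 measured 88.7, 93.4 and 82.5 CPM in SED, 81.4, 84.0 and 88.6 in SUS and 92.9, 85.2 and 93.2 in SUS_LE, with overlapping groups and a log2 fold change of -0.06 (95% interval -0.19 to 0.07).

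Dbp and Tef, the D-box-binding output factors, overlapped between SED and SUS. Dbp measured 32.5, 30.5 and 32.4 CPM in SED and 30.9, 32.7 and 35.0 CPM in SUS, a log2 fold change of 0.05 (95% interval -0.18 to 0.28). Tef measured 181, 193 and 194 CPM in SED, 214, 183 and 198 in SUS and 194, 200 and 191 in SUS_LE, a log2 fold change of 0.07 (95% interval -0.05 to 0.18). Genes on the other strand overlap Cry2 (D930015M05Rik, 0 to 0.137 CPM) and Tef (Gm17597, 0.347 to 1.70 CPM) and were near 0. On the same strand, the annotated Gm43658 (4176 bases) and the pseudogene Ube2n-ps1 (459 bases) overlap Clock on GRCm38. Neither symbol is in the count tables.

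In counts, 8 of the 10 genes had a positive and 2 a negative log2 fold change in SUS against SED, with a median of 0.06 against -0.00 over all tested genes. At an unadjusted edgeR p under 0.05, 3 of the 10 passed, Per1 and Cry2 higher and Clock lower, against 13.1% of all tested genes (6.83% higher and 6.26% lower). The groups did not overlap for 3 of the 10, Per1 and Nr1d1 higher and Clock lower, against 18.3% of all tested genes (9.72% higher and 8.56% lower). DESeq2 called 2 of the 10, against 4.51% of the 3928 genes to which it gave an adjusted p. It gave none to 4 of the 10. An exact permutation test of 3 libraries against 3 cannot give a two-sided p below 0.1, so the model across all genes was used throughout.

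Of 22 other clock genes, all tested, 0 passed the edgeR adjusted threshold in SUS against SED, and 12 had positive and 10 negative values (median 0.03). An unadjusted edgeR p under 0.05 was found for 2 of them, against 13.1% of all tested genes. Usp2, a clock-controlled ubiquitin protease, measured 65.0, 62.2 and 55.8 CPM in SED and 75.0, 71.1 and 74.4 CPM in SUS, a log2 fold change of 0.27 (SE 0.07, edgeR adjusted p = 0.134, and 0.0338 by DESeq2). Nampt, the clock-controlled enzyme of NAD synthesis, measured 68.4, 67.2 and 64.9 CPM in SED and 54.5, 61.4 and 59.9 CPM in SUS, a log2 fold change of -0.19 (SE 0.06, edgeR adjusted p = 0.205). Neither gene's groups overlapped. The partners of the positive limb differed little, with log2 fold changes of 0.08 (95% interval -0.08 to 0.25) for Bmal1 and 0.17 (-0.06 to 0.41) for Npas2.

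Genes of stimuli that act on Per1 were listed beside it. Of 10 immediate early genes, which neurons switch on within minutes of activity, 9 had a positive value in SUS against SED. The other, Fos, stood at -0.29. An unadjusted edgeR p under 0.05 was found for 6 and no overlap between groups for 7, all higher. Over all tested genes 6.83% were higher at that p and 9.72% higher without overlap. The 6 genes with that p had a GC content of 55.6% (Npas4) to 62.6% (Junb), while Ier2, at 60.9%, stood at 0.06. Fold changes of all genes rose with GC content here (rho 0.369) and fell in SUS_LE against SUS (-0.404). The part of GC content in the values of this list was not tested. None of the 10 immediate early genes passed the adjusted threshold by edgeR, and DESeq2 called 1 and gave 9 no adjusted p. Their median log2 fold change was 0.32, and their summed level was 210 to 237 CPM in SED, 275 to 318 in SUS and 224 to 275 in SUS_LE. Nr4a1, a nuclear receptor of this class, had a log2 fold change of 0.46 (SE 0.09, edgeR adjusted p = 0.0929). Of 10 glucocorticoid targets 7 had a positive value, with a median of 0.01, 1 had an unadjusted p under 0.05 (Mt1, a metallothionein, 0.16), and Fkbp5, the receptor's co-chaperone, stood at 0.00 (95% interval -0.31 to 0.31). The part of either stimulus in the Per1 values was not tested.

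The comparison of SUS_LE with SUS asks what exercise after the restraint went with. Per1 stood lower in SUS_LE, at a level between SUS and SED, and Dbp, the output factor whose mRNA has one of the widest daily swings, stood higher in 2 of the 3 SUS_LE libraries. None of the 10 genes, and no gene at all, passed the edgeR adjusted threshold (0.00% of genes). DESeq2 called 0 of the 10, against 3.57% of the 5177 genes with an adjusted p. The SUS libraries enter this comparison and the one before it, so opposite signs in the 2 are not independent.

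Per1 measured 60.6, 58.9 and 61.1 CPM in SUS_LE 1 to 3, below each of the SUS libraries. SUS_LE 1 and SUS_LE 3 lay above every SED library, and SUS_LE 2 lay above SED 1 and SED 3 but below SED 2 (59.6 CPM). The log2 fold change against SUS was -0.22 (SE 0.07, 95% interval -0.37 to -0.07, edgeR adjusted p = 0.180), and the DESeq2 adjusted p was 0.104. With the score of the choroid plexus markers as a covariate, the edgeR adjusted p was 0.0373 at a log2 fold change of -0.274, in a run that called 414 of 16106 genes. Without the 3 low-Ttr libraries it was -0.183 (edgeR adjusted p = 0.595), and with GC and length trends removed -0.12. Without SUS 2 DESeq2 gave 0.0441, and without SUS 1 the log2 fold change was -0.154 with a DESeq2 adjusted p of 0.737.

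Dbp measured 46.2, 31.9 and 38.8 CPM in SUS_LE 1 to 3, against 30.9, 32.7 and 35.0 CPM in SUS. The groups overlapped, since SUS_LE 2 lay within the SUS range while SUS_LE 1 and SUS_LE 3 were the highest of all 9 libraries. The log2 fold change was 0.25 (SE 0.11, 95% interval 0.02 to 0.47, edgeR adjusted p = 0.328), and DESeq2 gave no adjusted p. SUS_LE 1 and SUS_LE 3 are also among the 3 libraries lowest in Ttr. The third such library, SUS 1, had 30.9 CPM of Dbp, the second lowest value of the 9. Without these 3 libraries, which leaves SUS_LE with 1 library whose spread is taken to be that of the other groups, the log2 fold change was -0.081 (edgeR adjusted p = 0.888). Without SUS_LE 1 alone it was 0.106, and with the choroid plexus score as a covariate 0.221. The 7 endothelial markers summed to 248 to 272 CPM in SUS and 298 to 311 in SUS_LE, and 5 of them were higher at an unadjusted edgeR p under 0.05, with 0 past the adjusted threshold by edgeR or DESeq2. Of the 6 astrocyte markers 3 were higher at an unadjusted edgeR p under 0.05, without overlap, and 3 were called by DESeq2, and of the 7 oligodendrocyte markers DESeq2 called 1, Mal (0.37, DESeq2 adjusted p = 0.00157, edgeR adjusted p = 0.0922). Over all tested genes 7.20% were higher at an unadjusted p under 0.05. The part of these cells in the Dbp values was not tested.

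Sphk2, a sphingosine kinase gene, overlaps Dbp by 737 bases on the other strand. It measured 20.3, 16.9 and 18.2 CPM in SUS and 13.1, 15.9 and 14.2 CPM in SUS_LE, with no overlap, a log2 fold change of -0.36 (SE 0.10, edgeR adjusted p = 0.148). Its values thus lay in the direction opposite to Dbp, and reads in the shared bases cannot be told apart.

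At an unadjusted edgeR p under 0.05, 2 of the 10 genes passed in SUS_LE against SUS, Dbp higher and Per1 lower, against 13.7% of all tested genes (7.20% higher and 6.49% lower). For 1 of the 10, Per1, the groups did not overlap, against 17.0% of all tested genes (8.61% higher and 8.38% lower). Clock measured 120, 126 and 122 CPM in SUS_LE, all between the SUS mean of 113 ± 11.3 and the SED mean of 132 ± 4.90 (SD, n = 3). The SUS and SUS_LE groups overlapped, with SUS 2 at 125 CPM. The log2 fold change of Clock against SUS was 0.11 (SE 0.06, edgeR adjusted p = 0.438). Cry2 stood at -0.12 (edgeR adjusted p = 0.390), Cry1 at -0.12, Nr1d2 at 0.09, Per3 at 0.06, and Per2 at -0.02, Nr1d1 at 0.01 and Tef at -0.02. The median over the 10 genes was -0.00, as over all tested genes at 0.00.

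Among the 22 other clock genes 11 had positive and 11 negative values in SUS_LE against SUS, and none passed the edgeR adjusted threshold. An unadjusted edgeR p under 0.05 was found for 2, both higher, against 13.7% of all tested genes (7.20% higher and 6.49% lower). These were Nampt, at 67.6, 64.4 and 65.1 CPM in SUS_LE and above all SUS libraries (log2 fold change 0.17, SE 0.06, edgeR adjusted p = 0.241), and Bhlhe40, which encodes the repressor DEC1 (0.21, edgeR adjusted p = 0.317, overlapping groups). Fbxw11, a ubiquitin ligase subunit acting on PER, followed at 0.12 (edgeR adjusted p = 0.376). Bmal1 stood at 0.01 and Npas2 at -0.18 (95% interval -0.41 to 0.05). Of the 10 immediate early genes 8 had a negative value, with a median of -0.19, and 1, Nr4a1 (-0.29, edgeR adjusted p = 0.171), an unadjusted p under 0.05.

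**Figure D2:**
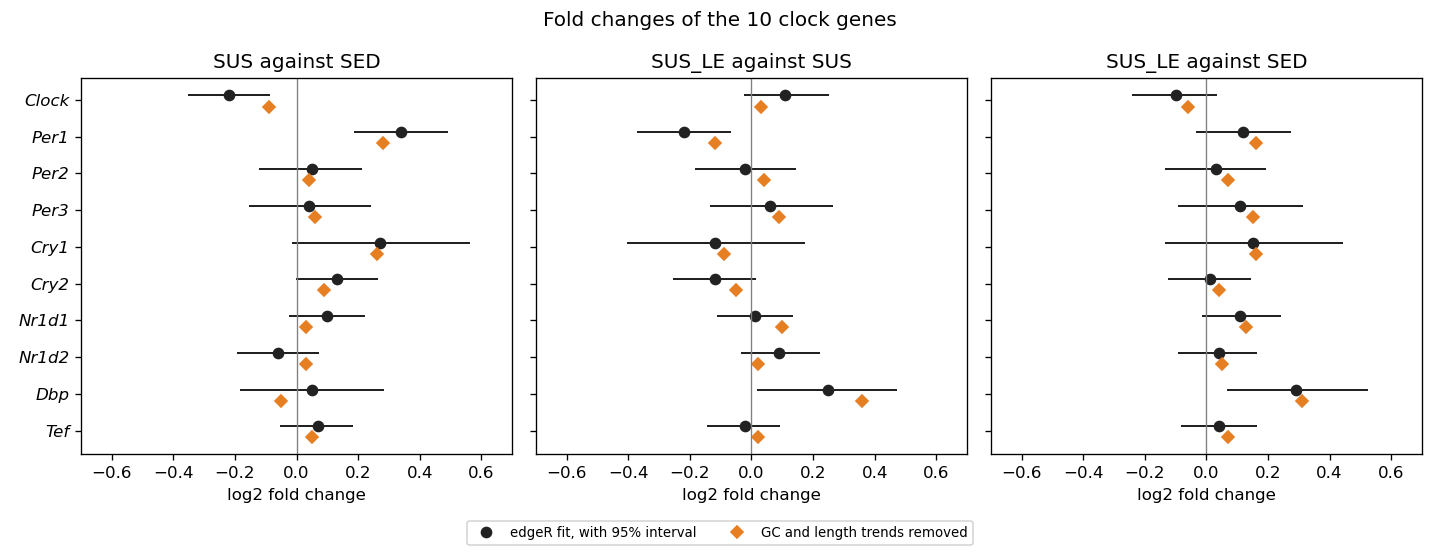
Log2 fold change (horizontal axis) of the 10 genes in the 3 comparisons by edgeR with the 95% interval (black), and after the trends of each library with GC content and transcript length were removed (orange diamonds). In SUS against SED, Per1 keeps most of its value (0.34 and 0.28) while Clock moves from -0.22 to -0.09, and in SUS_LE against SUS Dbp moves from 0.25 to 0.36.

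In SUS_LE against SED, which asks whether exercised mice differed from untreated ones, Dbp had the smallest p of the 10. Its log2 fold change was 0.29 (SE 0.11, 95% interval 0.07 to 0.52, edgeR adjusted p = 0.655), and the groups overlapped through SUS_LE 2. Without the 3 libraries lowest in Ttr it was 0.005, and without SUS_LE 1 alone 0.153. All 12 choroid plexus markers were lower in SUS_LE without overlap, 5 of them at an unadjusted edgeR p under 0.05 and 0 past the adjusted threshold by edgeR or DESeq2. With their score as a covariate Dbp stood at 0.248. No gene passed the edgeR adjusted threshold (0.00% of genes), and DESeq2 called 0 of the 10 against 0.0994% of genes. At an unadjusted edgeR p under 0.05, 1 of the 10 passed, Dbp, against 6.64% of all tested genes (2.79% higher and 3.86% lower).

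Per1 stood at 0.12 (SE 0.07, 95% interval -0.03 to 0.27) and Clock at -0.10 (95% interval -0.24 to 0.03), each with the sign it had in SUS against SED, a comparison that shares the SED libraries. With the choroid plexus score as a covariate Per1 was at 0.013 and Clock at 0.004, on the other side of 0, and without the 3 low-Ttr libraries Per1 was at 0.088 and Clock at -0.064. Nr1d1 stood at 0.11 (edgeR adjusted p = 0.766). The groups did not overlap for Nr1d1, higher, and Clock, lower, 2 of 10 genes against 16.2% of all tested genes (7.54% higher and 8.64% lower). In all, 9 of the 10 values were positive, with a median of 0.07 against 0.01 over all tested genes. Of the 22 other clock genes 13 were positive and 9 negative. In 1 the unadjusted edgeR p was under 0.05, against 6.64% of all tested genes. That gene was Ciart, a repressor also called Chrono, at 5.69, 5.47 and 4.80 CPM in SED, 5.29, 7.50 and 6.58 in SUS and 8.21, 6.89 and 7.35 in SUS_LE. The SED and SUS_LE groups did not overlap (log2 fold change 0.49, SE 0.16, edgeR adjusted p = 0.570). Usp2 (0.14, edgeR adjusted p = 0.764) followed, with Bmal1 at 0.09 and Npas2 at -0.00.

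For a difference anywhere among the 3 groups, the edgeR F test gave an adjusted p of 0.137 for Per1, an adjusted p of 0.227 for Clock and an adjusted p of 0.320 for Dbp. These 3 of 10 genes were under an unadjusted 0.05, against 13.5% of all tested genes, and 0 passed the adjusted threshold (0.00% of genes). DESeq2 called 1 of the 10, Per1 (adjusted p = 0.0145), against 4.65% of the 4240 genes with an adjusted p.

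The fold changes of all genes moved with GC content, the share of G and C bases in the longest transcript. Over the 92.7% of tested genes with a value, Spearman's rho of the log2 fold change with GC content was 0.369 in SUS against SED, -0.404 in SUS_LE against SUS and -0.0424 in SUS_LE against SED. With transcript length, rho was -0.243, 0.130 and -0.142 in the same comparisons. The clock genes span much of that range, from Clock at 40.9% and Nr1d2 at 41.8% to Per1 at 59.4% and Dbp at 61.6%. The lowest of them in GC content had the most negative value in SUS against SED, and Per1, second highest in GC content, the most positive. Other genes did not follow that order: Dbp, highest in GC content, stood at 0.05, Nr1d2 at -0.06, and Cry1, at 51.6%, at 0.27.

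After a trend with GC content and length was removed from each library, Per1 in SUS against SED stood at 0.28 (SE 0.06, edgeR adjusted p = 0.283) and Clock at -0.09 (SE 0.05, edgeR adjusted p = 0.666). The fitted trends alone gave 0.06 for Per1 and -0.13 for Clock. With the trends removed DESeq2 gave Clock an adjusted p of 0.524 and Per1 none, so 0 of the 10 were called. In SUS_LE against SUS, Per1 stood at -0.12 (edgeR adjusted p = 0.612), Dbp at 0.36 (SE 0.10, edgeR adjusted p = 0.324) and Nr1d1 at 0.10 (edgeR adjusted p = 0.611). In SUS_LE against SED, Dbp stood at 0.31 (edgeR adjusted p = 0.595), Per1 at 0.16 (edgeR adjusted p = 0.610) and Nr1d1 at 0.13 (edgeR adjusted p = 0.652). With the trends removed, 1, 1 and 3 of the 10 genes had an unadjusted p under 0.05 in the 3 comparisons, against 8.80%, 8.77% and 7.15% of all tested genes, and 0 passed the adjusted threshold in any. Whether the trend is technical was not tested.

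**Figure D3:**
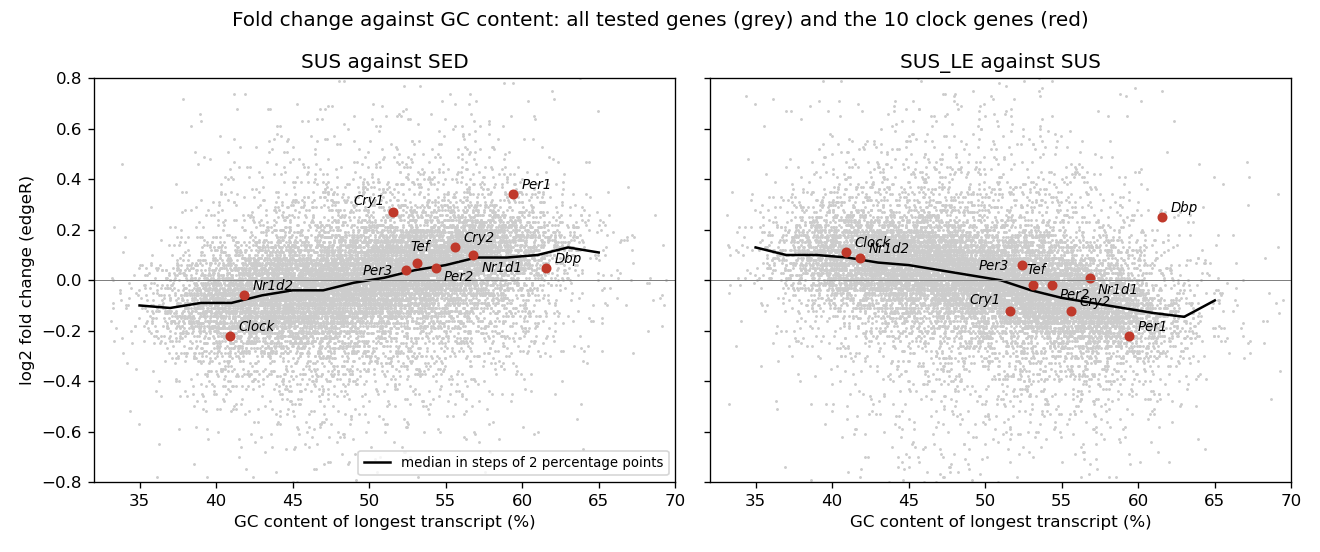
Log2 fold change (vertical axis) against GC content of the longest transcript (horizontal axis, in %) for tested genes with a mean log2 CPM above 0 (grey), their median in steps of 2 percentage points (line) and the 10 clock genes (red), in 2 comparisons. Clock and Per1 lie farther from 0 than the median line at their GC content in SUS against SED, and Dbp lies above the line in SUS_LE against SUS, where the line falls with GC content (rho -0.404).

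The relation between Clock and the Per and Dbp arm was then read across the 9 libraries, as Pearson's r of log2 CPM with an exact two-sided permutation p over all 362880 pairings, adjusted over the 9 relations of Clock with the other genes. The pairings ran across groups, so differences between group means enter both r and p. Values for deviations from group means are given below. Clock ran opposite to Per1, with r = -0.85 (exact p = 0.00513, adjusted p = 0.0462) and Spearman's rho = -0.85 (exact p = 0.00607, adjusted p = 0.0273). The relation with Cry2 was r = -0.83 (exact p = 0.0112, adjusted p = 0.0504) and rho = -0.57 (exact p = 0.121, adjusted p = 0.320). With Tef it was r = -0.68 (exact p = 0.0484, adjusted p = 0.145) and rho = -0.50 (exact p = 0.178, adjusted p = 0.320). With Nr1d1 it was r = -0.61 (exact p = 0.0841, adjusted p = 0.189) and rho = -0.88 (exact p = 0.00308, adjusted p = 0.0273).

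No relation of Clock with Dbp was detected over the 9 libraries, with r = -0.09 (exact p = 0.816, adjusted p = 0.816) and rho = -0.38 (exact p = 0.312, adjusted p = 0.469). The other 4 relations had r = -0.52 for Per3, -0.36 for Per2, -0.20 for Cry1 and 0.19 for Nr1d2, with adjusted p-values of 0.267, 0.531, 0.731 and 0.731 by the exact permutation test. So 8 of the 9 genes had a negative r with Clock, and 1 of 9 relations passed the adjusted threshold by r and 2 by rho. The share of all genes with such an r was not counted, so these counts cannot be read as particular to the clock genes. The r with Clock fell with GC content over 10205 genes (rho -0.53), and Clock itself is low in GC content (40.9%).

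These relations were recomputed in several ways. Without SED 3 and SUS 1, the 2 libraries farthest from the median of Clock, r was -0.70 for Per1, -0.80 for Nr1d1, -0.43 for Tef, -0.13 for Cry2 and -0.54 for Dbp, and none of the 9 had an adjusted permutation p under 0.05 (the smallest was 0.257). The relation with Cry2 thus rests on those 2 libraries, and the Per1 relation kept its sign without its call. As deviations from the group means, r was -0.58 for Per1 (adjusted permutation p = 0.444), -0.76 for Cry2, -0.73 for Per3, -0.42 for Nr1d1 and -0.06 for Dbp. Within the 6 libraries that are not lowest in Ttr, r was -0.70 for Per1, -0.88 for Nr1d1 and -0.72 for Dbp, each with an adjusted permutation p of 0.325. With GC and length trends removed, r was -0.62 for Per1 (exact permutation p = 0.0745, adjusted p = 0.313), -0.62 for Per3, -0.58 for Nr1d2, -0.27 for Nr1d1 and -0.03 for Dbp. Leaving out 1 library in turn gave r between -0.688 (without SUS 1) and -0.939 (without SED 1) for Per1, with an adjusted p under 0.05 only without SED 1 or SUS 2. For Dbp the same runs gave between -0.531 (without SUS 1) and 0.001 (without SED 2).

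**Figure D4:**
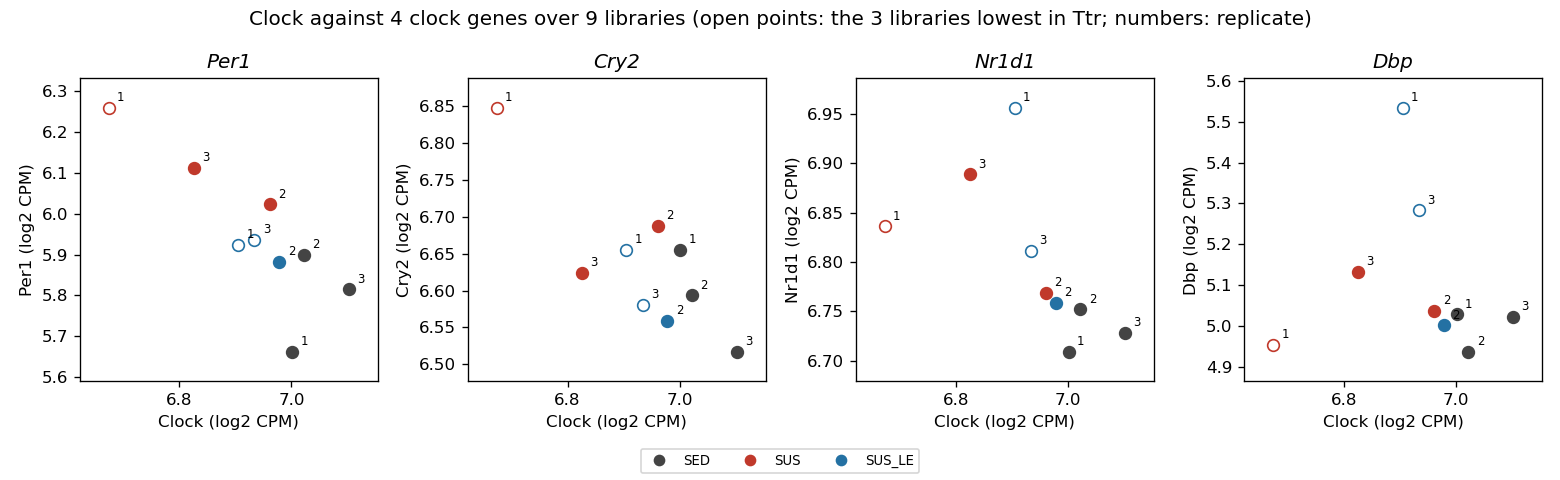
Log2 CPM of Per1, Cry2, Nr1d1 and Dbp (vertical axes) against log2 CPM of Clock (horizontal axes) in 9 libraries, coloured by group and numbered by replicate, with open points for the 3 libraries lowest in Ttr. Per1 is lower where Clock is higher (r = -0.85), and the Dbp panel holds SUS_LE 1 and SUS_LE 3 above the other 7 libraries, SUS_LE 1 by the wider margin (r = -0.09).

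Among the remaining pairs, given as a description without p, Dbp ran with Nr1d1 (r = 0.75, and 0.93 with trends removed) and with Ciart (0.72), and Per3 with Nr1d1 (0.78). Over all 9 libraries Per1 ran with Tef (0.71) and with Cry2 (0.65), and not with Dbp (-0.05). Within the 6 libraries that are not lowest in Ttr, these values were 0.41, 0.21 and 0.48. There, Dbp had r = 0.72 with Nr1d1 and 0.34 with Ciart, and Per3 had 0.53 with Nr1d1. Within the PAR bZIP pair, Dbp and Tef had r = -0.13. Among the positive factors, Clock had r = 0.01 with Bmal1 and -0.10 with Npas2. Npas2 ran with Cry1 (0.89, and 0.89 with trends removed). All these points share libraries, scaling and base composition, and the r of a gene with Clock fell with its GC content over 10205 genes (rho -0.53).

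**Figure D5:**
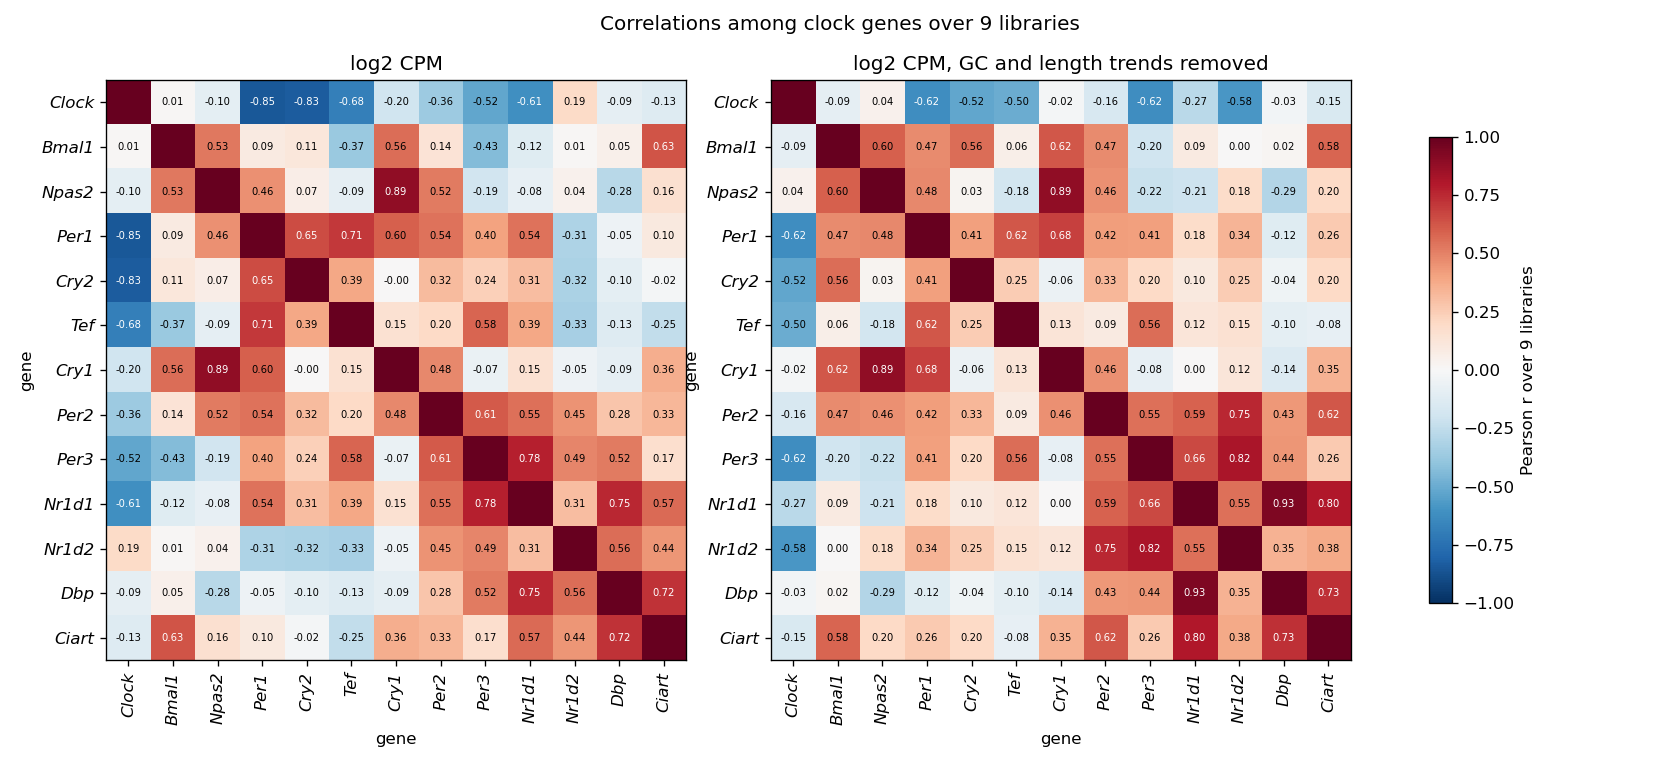
Pearson r between clock genes over 9 libraries in log2 CPM (left) and with GC and length trends removed (right), on a scale from -1 to 1. The row of Clock is negative with Per1, Cry2 and Tef on the left (-0.85, -0.83 and -0.68) and weaker on the right (-0.62, -0.52 and -0.50), while Dbp with Nr1d1 is positive in both (0.75 and 0.93).

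The genes most like Clock and Dbp were named by the highest r over the 9 libraries among 10407 tested genes with a mean log2 CPM above 3. For Clock these were Qser1 (0.99), Zfp106 (0.97), Scaf11 (0.96), Usp8 (0.95) and Cpd (0.95), and with GC and length trends removed their r with Clock was 0.82 to 0.92. For Dbp they were Snu13 (0.94), Acot9 (0.94), Slc15a2 (0.92), Snhg8 (0.88) and Mdh2 (0.88), and 0.61 to 0.88 with trends removed. Neither list holds a clock gene. Slc15a2, a peptide transporter, had a log2 fold change of 0.24 in SUS_LE against SUS, near the 0.25 of Dbp, and the other 4 of the Dbp list stood at 0.03 to 0.07.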

How the data were processed

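Each of the 9 libraries holds total RNA of the ventral hippocampus of 1 mouse, prepared with a CORALL V2 kit, according to the labels. The deposited files give a whole-number count per gene symbol for 40213 genes, without normalization. For reads and alignment, the submitters' processing notes list the tools fastp, STAR and Salmon and the build GRCm39, and no version. Annotation, strand setting, UMI handling and rounding of the counts by the authors are not given in the sources used here. Library totals were 14172344 to 15582304 counts, and 3 counts is the upper 95% limit of a count of 0 in a library. Replicate numbers of the exercised libraries are those of the labels (1 to 3), while the headers of their files number them 2 to 4. All libraries carry the same batch label, and libraries of the same group all differed beyond sampling noise in a chi-square comparison of counts (chi-square per degree of freedom 2.70 to 14.6).

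Software versions were edgeR 4.0.16, DESeq2 1.42.0 and limma 3.58.1 under R 4.3.3, and scipy 1.17.1 and numpy 2.4.6 under Python 3.11.15. The edgeR expression filter left 16106 genes with 99.9% of counts. A robust quasi-likelihood model with TMM factors and group as the only term was fitted to all 9 libraries (common biological coefficient of variation 0.0845) and tested in 3 comparisons and over all groups, with Benjamini-Hochberg adjustment over all tested genes and a threshold of 0.05. DESeq2 adjusted p-values are over genes left by its independent filtering. Log2 CPM used a prior count of 2. GC and length trends were splines with 4 degrees of freedom on the longest GENCODE transcript of each symbol on GRCm38, used as offsets. The code was tested on simulated counts. The alternatives were other tests, scalings and filters, a replicate block, the choroid plexus marker score as a covariate, and libraries left out. DESeq2 with libraries left out, with trends removed and without independent filtering, and the GC or length trend alone, were chosen after seeing the data. The 10 genes, the other lists and the tests were chosen with earlier results of these data known. Named beside the 10 genes were Bmal1, Npas2, the 3 other clock genes with the smallest unadjusted p per comparison (1 result is not reported here), genes overlapping a member, and the 5 genes most like Clock and Dbp. Promoter sequences came from RefSeq on GRCm38.p6.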

Additional observations from a re-analysis of the deposited data

How the results depend on the processing

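The values below concern the 10 clock genes. Of 750 log2 fold changes recomputed under alternatives, 45 turned sign, and their smallest adjusted p was 0.818. In SUS against SED these were Per3 (-0.009 with the choroid plexus score, -0.018 without the 3 libraries lowest in Ttr, -0.014 without SUS 1), Nr1d2 (0.026 with GC and length trends removed, with or without the replicate block, 0.022 with GC alone) and Dbp (-0.050, -0.047 with the block, -0.038 with GC alone, -0.004 without SUS 3). In SUS_LE against SUS they were Per2 (0.036 with trends removed, 0.037 with the block, 0.043 with GC alone, 0.018 without SUS_LE 2), Per3 (-0.002 without the 3 libraries, -0.033 without SUS 2, -0.013 without SUS_LE 1), Nr1d1 (-0.016 with library totals only, -0.001 with the choroid plexus score, -0.067 without the 3 libraries, -0.022 without SUS 2, -0.046 without SUS_LE 1), Nr1d2 (-0.015) and Dbp (-0.081) without the 3 libraries, and Tef (0.003 by limma, 0.017 with trends removed, 0.018 with the block, 0.021 with GC alone, 0.072 without the 3 libraries, 0.033 without SUS 1). In SUS_LE against SED they were Per2 (-0.009 with the score, -0.043 without the 3 libraries, -0.006 without SED 1, -0.001 without SUS_LE 1), Per3 (-0.000 and -0.020 with the first 2 of these), Cry2 (-0.013 with library totals only, -0.100 with the score, -0.030 without the 3 libraries, -0.026 without SED 3, -0.019 without SUS_LE 1), Clock (0.004) and Tef (-0.017) with the score, and Nr1d2 (-0.048 without the 3 libraries, -0.010 without SED 3). The r of Clock turned sign with Cry1 as deviations from group means (0.560), with Nr1d2 with trends removed (-0.578), as deviations (-0.136), without the 2 libraries farthest from the median of Clock (-0.035), without the 3 libraries lowest in Ttr (-0.257) and without SUS 1 (-0.405), and with Dbp without SED 2 (0.001). With 1 library left out at a time, the far end of the range was 0.134 for Per3 and 0.089 for Dbp in SUS against SED; 0.126 for Per3, 0.054 for Nr1d1 and -0.084 for Tef in SUS_LE against SUS; 0.090 for Per2 and 0.080 for Nr1d2 in SUS_LE against SED; and r = 0.518 for Clock with Nr1d2 and -0.531 with Dbp. The causes were not tested.

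The count of clock genes past the adjusted threshold, 0 in each comparison by edgeR, was 2 by DESeq2 and 2 with no filter on low counts in SUS against SED, and 0 to 1 with a library left out. It was 1 in SUS_LE against SUS with the choroid plexus score, and 1 in SUS_LE against SED with no filter (Dbp, adjusted p = 0.0413 by edgeR). For any difference it was 1 by DESeq2, 3 with no filter and 1 with the score. With no filter 26992 genes were tested and 297, 430 and 218 genes passed in the 3 comparisons, against 0 with the filter. With the score 414 genes passed in SUS_LE against SUS and 174 for any difference. Whether replicate numbers pair the mice could not be decided from correlations of deviations from group means, since their ranges overlapped. Same-numbered libraries had -0.16 to 0.31 by the labels, and different-numbered ones -0.40 to 0.28. The exercised libraries had -0.22 to 0.28 with those they share a number with by their file headers. With replicate number as a block, 0 clock genes passed in each comparison, and Per1 stood at 0.340 in SUS against SED (edgeR adjusted p = 0.133). With 3 mice in a group, 1 library can decide a call, as it did for Per1 and Clock.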
